A study of Mus musculus with 6 samples.

Results

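DNA replication needs proteins that mark and load origins, a helicase that opens the duplex, polymerases with their clamp and clamp loader, enzymes that join the lagging strand, enzymes that make deoxynucleotides and chaperones that set histones on the new DNA. The transcripts of 51 such genes, out of 55736 in the deposited table, were picked by gene symbol, and no symbol was repeated. RNA was sequenced from wild-type (WT) mouse bone marrow-derived macrophages, cells that grow out of marrow in culture. There were 3 libraries of cells given 200 ng/ml lipopolysaccharide (LPS), a glycolipid of Gram-negative bacteria that Toll-like receptor 4 senses, and 3 libraries of control cells, all at 24 h. The LPS titles hold a further 500 that the labels do not explain. Marrow macrophages are known to divide in culture under colony-stimulating factor 1, and many replication genes are known to be transcribed in cycling cells under E2F factors and to be low in resting ones. Levels are given as TPM, a measure of transcripts scaled by gene length and to the same total in every library, so they can be compared between genes. Only RNA was measured, so falls and rises below are of transcripts, not of proteins. Differences are LPS minus control on the log2(TPM + 1) scale, which understates changes of low transcripts. A gene was called where the limma p-value, adjusted over all 12440 tested genes, was under 0.05.

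The 9 macrophage markers checked, Adgre1 and Csf1r among them, were all detected, and they summed to between 35300 and 37800 TPM in LPS and between 26900 and 28500 TPM in control libraries. Of 4 mast cell and basophil, 5 erythroid and 6 lymphocyte markers none reached 1 TPM in any library. Dendritic cell markers summed to between 8.27 and 10.3 TPM in LPS and between 9.47 and 13.7 TPM in control libraries, mostly Itgax. Stromal markers summed to between 5.54 and 5.96 TPM in LPS and between 4.65 and 5.74 TPM in control libraries. Of these, Dcn was called higher, averaging 1.42 TPM in LPS and 0.0867 TPM in control libraries. Immature marrow cells divide and could carry replication transcripts, and their 6 markers summed to between 0.27 and 0.98 TPM in LPS and between 5.78 and 6.71 TPM in control libraries. Sox4 and Cd34 made up most of the control sum, and Kit did not pass 0.32 TPM anywhere. Flt3 was listed at 0 in every LPS library and did not pass 0.04 TPM in control libraries. Neutrophil markers summed to between 117 and 136 TPM in LPS and between 36.5 and 41.5 TPM in control libraries, with Ly6g and Retnlg listed at 0 in all. S100a8 carried most of that difference, with 89.6, 77.1 and 72.9 TPM in LPS libraries and 4.60, 5.24 and 3.16 TPM in control libraries, while S100a9 did not pass 1.56 TPM in any library and 6 of the 10 markers were under 1 TPM in all. The part of these cells in the results was not tested. In bulk RNA, fewer dividing cells and less RNA per cell cannot be told apart.

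After LPS nearly all transcripts of the replication machinery were lower. All 51 members passed the filter on low values, 49 were called lower and 0 higher, and only the origin recognition genes Orc2 and Orc4 were not called. Among all tested genes 59.8% were called lower and 16.3% higher. By size of change in the values as deposited, 33 members were called lower by at least 2 on the log2 scale, against 5.84% of tested genes. The median change was −2.19 over the members and −0.44 over all tested genes. LPS and control values did not overlap in 49 members, and 78.6% of tested genes had such separation. With median-of-ratios scaling the median change was 0.00 over all genes and −1.73 over the members. Under it 46 members stayed lower and 1 was higher. Of all tested genes 4181 (33.6%) were then lower and 4167 higher. The summed level of the 51 transcripts ranged from 658.5 to 678.4 TPM in LPS and from 3237 to 3528 TPM in control libraries, so that LPS libraries held 19.7% of the control level. Among tested genes ordered by fall, 21 members stood in the first 500, which is 41.2% of the members and 4.02% of tested genes.

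**Figure D1:**
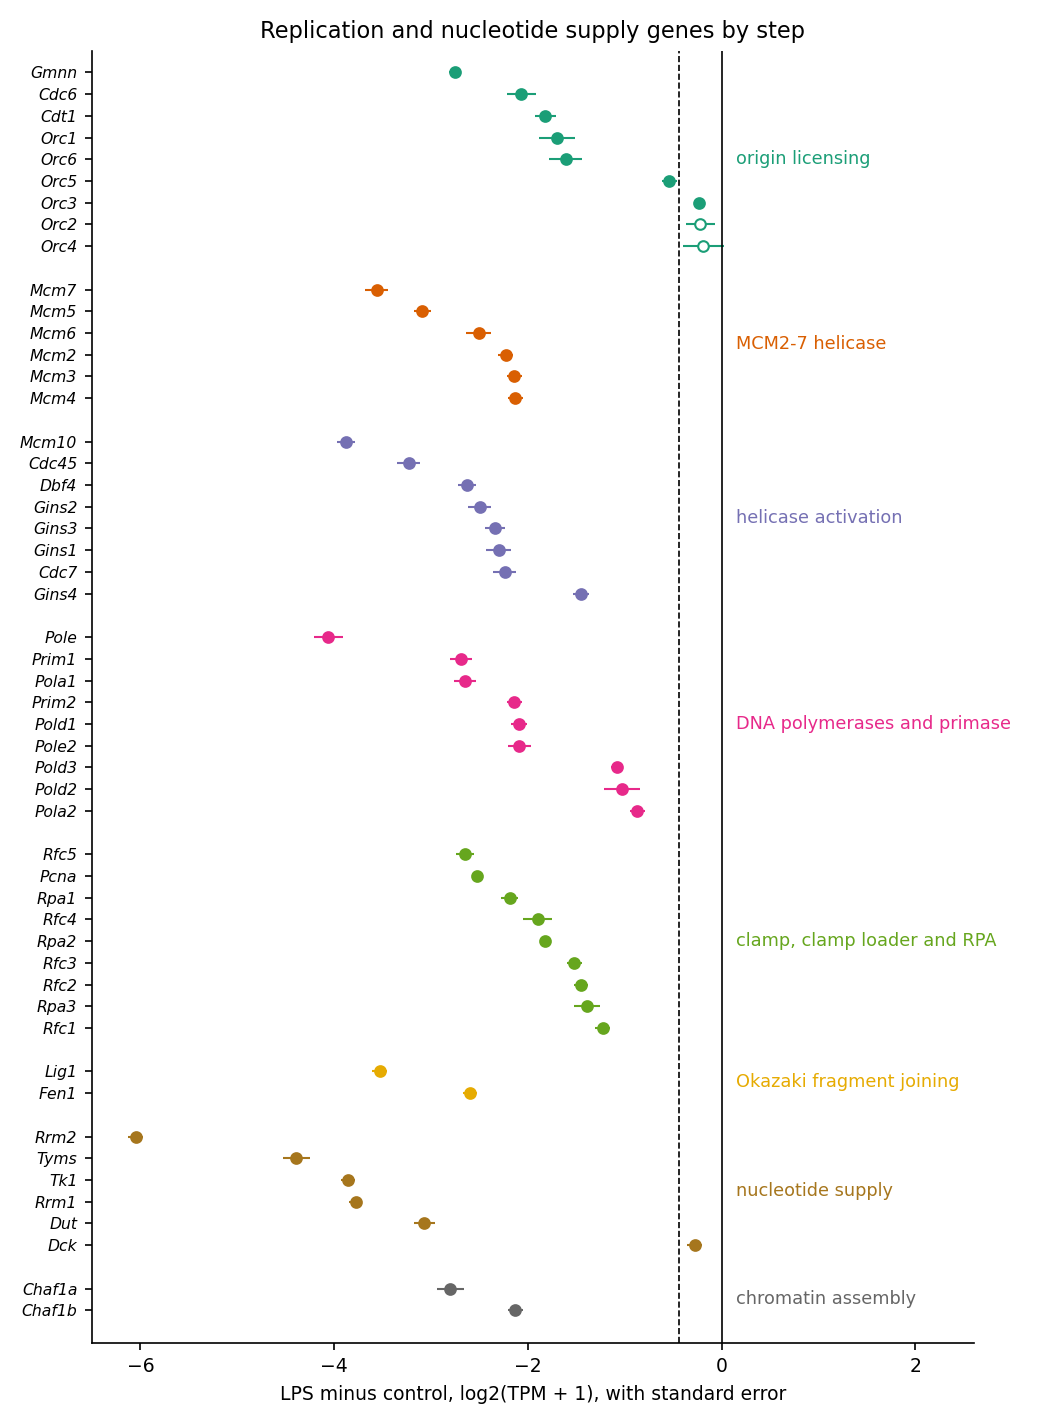
Change of each of the 51 transcripts (horizontal axis, LPS minus control on the log2(TPM + 1) scale, bars 1 standard error, 3 libraries per group), ordered within 8 replication steps. Filled points were called, the 2 open points were not, and the dashed line is the median of all tested genes at −0.44. Most points lie between −1 and −4, while Orc2 to Orc5 and Dck lie near the dashed line.

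Origin licensing held both clear falls and the 2 members without a call. The origin recognition complex (ORC) binds origins, and Cdc6 and Cdt1 then load the helicase onto them. Orc1, the subunit whose supply is known to follow the cell cycle, had 0.36, 0.50 and 0.17 TPM in LPS libraries, against 2.55, 4.57 and 3.14 TPM in control libraries. Its mean was 9.96-fold lower, and the groups were well apart (change −1.70, SE 0.19, adjusted p = 0.000142). Orc6 fell to 8.23 ± 2.14 TPM in LPS libraries, against 26.6 ± 1.18 TPM in control libraries (SD, n = 3 each, as for all levels given so). The 4 remaining subunits moved less. Orc3, at 27.7, 25.2 and 26.8 TPM in LPS and 30.2, 32.4 and 31.4 TPM in control libraries, was called lower by 0.23 (adjusted p = 0.0105), yet after median-of-ratios scaling the same gene was called higher, by 0.25 (adjusted p = 0.00562). Its direction therefore depends on the scaling. Orc2 averaged 13.5 TPM in LPS and 15.9 TPM in control libraries (adjusted p = 0.233), and Orc4 averaged 15.9 TPM in LPS and 18.3 TPM in control libraries (adjusted p = 0.448). The groups overlapped in both, and their changes of −0.22 and −0.19 turned to 0.25 and 0.28 after scaling, uncalled there too. GENCODE M21 places 29.8% of the exon bases of Orc2 under exons of Nif3l1 on the opposite strand, so reads of these genes may be mixed if strand was not used. The same limit holds for Orc6, with Vps35 opposite 6.93% of exon bases. Vps35 had between 65.4 and 70.1 TPM in LPS and between 104 and 118 TPM in control libraries. Orc5 had 9.98 ± 0.529 TPM in LPS and 14.9 ± 0.976 TPM in control libraries, a call lost after scaling (change −0.08, adjusted p = 0.407).

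The subunit transcript levels of ORC thus spread apart, a widening that rests mostly on Orc1. Orc1 stayed under 1 TPM in every LPS library. Between the lowest and the highest subunit, Orc1 and Orc3 in both groups, the means differed 77.4-fold in LPS and 9.16-fold in control libraries. The ratio of Orc1 to Orc3 within a library, which no scaling of whole libraries can alter, was 0.0130, 0.0198 and 0.00635 in LPS libraries and between 0.0844 and 0.141 in control libraries. Their promoters are shown because these subunits of 1 complex responded so differently. They come from RefSeq on GRCm38.p6, from 250 bases before to 50 bases after the start, read 5′ to 3′ on the strand of the gene: chr4:108579204-108579503 (plus strand) for Orc1 and chr4:34614893-34615192 (minus strand) for Orc3. Capitals mark matches to E2F-type letters, TTTNNCGC with C or G at each N, on either strand.
Orc1: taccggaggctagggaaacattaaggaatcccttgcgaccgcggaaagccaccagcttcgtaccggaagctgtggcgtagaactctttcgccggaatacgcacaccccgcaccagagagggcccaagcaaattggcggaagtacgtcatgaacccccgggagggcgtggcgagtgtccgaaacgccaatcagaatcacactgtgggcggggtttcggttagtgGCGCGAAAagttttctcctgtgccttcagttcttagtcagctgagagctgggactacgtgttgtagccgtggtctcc
Orc3: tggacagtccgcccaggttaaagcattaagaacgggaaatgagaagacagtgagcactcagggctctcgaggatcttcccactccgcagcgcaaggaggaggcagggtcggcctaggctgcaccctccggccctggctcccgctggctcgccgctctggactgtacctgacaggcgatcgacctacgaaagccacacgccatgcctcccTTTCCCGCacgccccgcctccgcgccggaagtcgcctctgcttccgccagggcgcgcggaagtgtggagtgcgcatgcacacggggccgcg
Both windows hold 1 match. As the windows are read, it begins 27 bases before the start in Orc1, on the opposite strand, and 41 bases before the start in Orc3, on the strand of the gene. Windows were found for 43 members, 52 windows in all, and 28.8% of these held a match, against 4.05% of the windows of all tested genes and 2.26% of all windows in the table. Members called lower by at least 2 held it in 31.2% of windows and the other members in 25.0%. CCAAT, the letters of an NF-Y box, stood in 26 of the members' 52 windows and in 38.0% of the windows of tested genes. TTTGAA, the letters of the cell cycle genes homology region, stood in 17.3% and 12.5%. Motif matches are letters in a window, with overlapping matches counted, and do not show binding.

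Among loading factors, Cdc6, the ATPase that joins ORC to load the helicase, had 1.25, 0.63 and 0.91 TPM in LPS libraries, against 7.89, 6.54 and 6.71 TPM in control libraries. It was 7.58-fold lower (change −2.07, SE 0.15, adjusted p = 1.14e-05). Cdt1, which brings the helicase to the origin, fell 3.63-fold, to 20.5 ± 3.22 TPM in LPS libraries, against 74.3 ± 3.99 TPM in control libraries. Gmnn encodes geminin, which binds CDT1 and blocks a second loading, and it fell further, 7.11-fold, with 15.1, 15.8 and 13.95 TPM in LPS libraries and 106, 111 and 102 TPM in control libraries (change −2.75, SE 0.06, adjusted p = 4.78e-08). The balance of these transcripts differed: the Cdt1 to Gmnn ratio was 1.41, 1.07 and 1.67 in LPS libraries and 0.713, 0.700 and 0.683 in control libraries. Amounts of the proteins were not measured. Every LPS library had more Cdt1 than Gmnn TPM, and every control library had less.

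Transcripts of the MCM2-7 helicase fell for all 6 subunits, each by more than 2 on the log2 scale as deposited. After median-of-ratios scaling all were still called lower, but the changes of Mcm2, Mcm3 and Mcm4 were −1.77, −1.65 and −1.66. These proteins form a ring that is loaded as a double hexamer and later unwinds the DNA. Mcm7 had 8.93, 7.08 and 10.5 TPM in LPS libraries, against 109, 118 and 114 TPM in control libraries, a 12.9-fold lower mean (change −3.56, SE 0.12, adjusted p = 2.86e-07). Mcm5 had 14.2, 11.2 and 11.8 TPM in LPS libraries, against 115, 117 and 105 TPM in control libraries, and was 9.07-fold lower. Both lay far below every control library. Ap4m1 lies opposite 7.25% of Mcm7 exon bases and had between 10.1 and 13.9 TPM in LPS and between 23.1 and 28.0 TPM in control libraries. Cops6 lies opposite a further 1.45% and had between 64.65 and 73.5 TPM in LPS and between 63.25 and 68.75 TPM in control libraries. Mcm6, the most abundant subunit transcript by mean in both groups, averaged 24.0 ± 3.42 TPM in LPS and 141 ± 19.8 TPM in control libraries. Mcm2, the least abundant, averaged 7.06 ± 0.487 TPM in LPS and 36.8 ± 2.19 TPM in control libraries. Mcm3 was 4.54-fold lower and Mcm4 was 4.76-fold lower. The span from the lowest to the highest subunit was 3.40-fold in LPS and 3.84-fold in control libraries, a smaller difference than in ORC. By fold of means the fall ran from 4.54-fold for Mcm3 to 12.9-fold for Mcm7. This pair was chosen after its values were seen. Mcm7 to Mcm3 gave ratios of 0.453, 0.314 and 0.437 in LPS libraries and 1.15, 1.11 and 1.15 in control libraries.

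The promoters of Mcm5 (chr8:75109259-75109558, plus strand) and Mcm6 (chr1:128359656-128359955, minus strand) are shown because matches to the same letters lie on both strands and overlap there, in windows cut and marked as above.
Mcm5: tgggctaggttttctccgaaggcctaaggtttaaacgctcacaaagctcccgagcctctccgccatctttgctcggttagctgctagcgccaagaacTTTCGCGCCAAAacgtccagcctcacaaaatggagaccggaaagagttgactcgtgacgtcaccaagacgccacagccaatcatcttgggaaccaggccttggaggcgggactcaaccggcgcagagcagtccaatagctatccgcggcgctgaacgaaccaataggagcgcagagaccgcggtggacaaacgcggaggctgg
Mcm6: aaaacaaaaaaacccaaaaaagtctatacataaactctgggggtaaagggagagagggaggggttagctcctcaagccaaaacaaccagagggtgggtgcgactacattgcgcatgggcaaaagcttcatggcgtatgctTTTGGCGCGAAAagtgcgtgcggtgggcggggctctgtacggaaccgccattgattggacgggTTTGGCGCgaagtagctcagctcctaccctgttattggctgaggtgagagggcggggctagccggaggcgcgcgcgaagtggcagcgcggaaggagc
In Mcm5 the pair begins 153 and 149 bases before the start. In Mcm6 a pair begins 110 and 106 bases before it, and a single match begins 47 bases before it. Mcm5 and Mcm6 were 9.07-fold and 5.87-fold lower in LPS libraries. Whether the number of matches relates to the size of a fall was not tested.

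Helicase activation transcripts were lower for every factor measured. The kinase CDC7 with its activator DBF4 phosphorylates the loaded ring, and CDC45 and the 4 GINS subunits then join it as the CMG helicase. MCM10 belongs to this activation step too. Mcm10 had 1.66, 1.64 and 1.41 TPM in LPS libraries, against 39.2, 37.9 and 33.7 TPM in control libraries. It was 23.5-fold lower and ranked 145 among all tested genes by fall (change −3.88, SE 0.09, adjusted p = 5.13e-08). Cdc45 had 1.57, 2.15 and 2.00 TPM in LPS libraries, against 26.6, 28.7 and 23.2 TPM in control libraries, 13.7-fold lower. Cdc7 and Dbf4 fell to a like extent, 6.87-fold and 7.13-fold. Of the GINS genes, Gins1, Gins2 and Gins3 were 6.03-fold, 6.24-fold and 8.35-fold lower. Gins4 was the exception in size, with 17.5, 19.6 and 19.5 TPM in LPS libraries and 50.8, 58.3 and 50.7 TPM in control libraries, 2.82-fold lower. The ratio of Gins4 to Gins3, a pair chosen after its values were seen, was 12.1, 18.3 and 17.0 in LPS libraries. In control libraries it was 4.96, 5.97 and 4.76. For Gins2, 67.3% of exon bases lie under Gse1 on the opposite strand, and Gse1 was listed at between 8.46 and 9.33 TPM in LPS and between 11.9 and 13.6 TPM in control libraries.

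**Figure D2:**
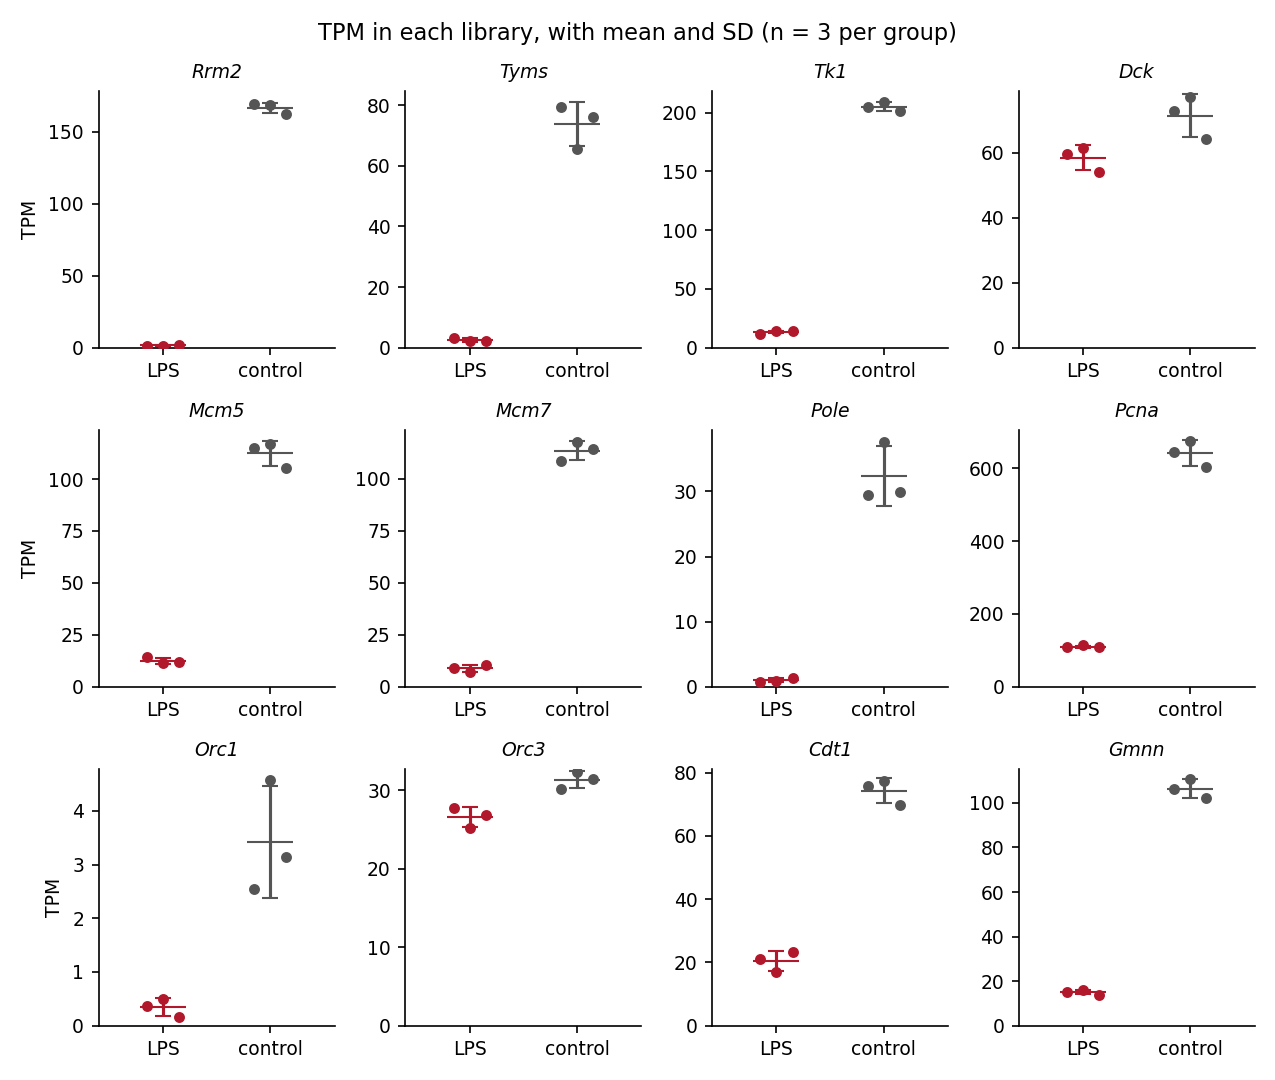
TPM of 12 transcripts (vertical axes, each from 0) in the 3 LPS libraries (red) and the 3 control libraries (grey), with the mean and SD. The LPS points lie below all control points in each panel, by 108-fold for Rrm2 on means but by 1.22-fold for Dck and 1.18-fold for Orc3.

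The replicative polymerases split by subunit. Pole, the catalytic subunit of leading-strand polymerase epsilon, had 0.72, 0.89 and 1.39 TPM in LPS libraries, against 29.5, 37.7 and 29.9 TPM in control libraries. This was a 32.3-fold lower mean (change −4.06, SE 0.15, adjusted p = 4.47e-07). Its partner Pole2 fell 5.81-fold. The small histone-fold subunits of the same enzyme, which are not members of the set, fell less or were not called: Pole3 had 16.8 ± 1.01 TPM in LPS and 42.7 ± 2.23 TPM in control libraries, and Pole4 had 36.1 ± 3.08 TPM in LPS and 37.6 ± 8.20 TPM in control libraries (adjusted p = 0.835). POLE3 also belongs to a chromatin remodelling complex. The Pole to Pole3 ratio was 0.0432, 0.0497 and 0.0874 in LPS libraries and 0.688, 0.840 and 0.741 in control libraries.

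Polymerase alpha with primase lays down the RNA-DNA primer. Pola1, its polymerase subunit, had 1.40, 1.74 and 1.69 TPM in LPS libraries, against 15.1, 17.2 and 14.0 TPM in control libraries. The accessory Pola2 had 19.4, 21.3 and 20.8 TPM in LPS libraries, against 36.8, 42.6 and 36.3 TPM in control libraries. Pola1 was thus 9.59-fold and Pola2 1.88-fold lower, and the ratio of the pair averaged 0.0782 ± 0.00538 in LPS and 0.400 ± 0.0126 in control libraries. The primase subunits Prim1 and Prim2 were 8.03-fold and 4.91-fold lower. In lagging-strand polymerase delta, the catalytic Pold1 fell 4.54-fold, to 12.2 ± 0.509 TPM in LPS libraries, against 55.3 ± 4.82 TPM in control libraries. The accessory subunits Pold2 and Pold3 fell 2.16-fold and 2.17-fold. Pold2 scattered among control libraries, with 37.3, 28.6 and 50.9 TPM there and 16.7, 17.9 and 19.6 TPM in LPS libraries (adjusted p = 0.00174). The smallest subunit gene, Pold4, outside the set, had 51.4 ± 1.18 TPM in LPS and 67.1 ± 8.31 TPM in control libraries, a call that was lost after median-of-ratios scaling, where its change turned to 0.12 (adjusted p = 0.342). In polymerases alpha, delta and epsilon alike, the catalytic polymerase transcript fell by more than the accessory ones, with the primase subunits left aside. Prim1 and Pola1 were near each other on the log2(TPM + 1) scale, with changes of −2.69 and −2.65.

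Pcna, the sliding clamp that tethers polymerases, was the most abundant member in both groups. It had 108, 113 and 109 TPM in LPS libraries, against 646, 676 and 605 TPM in control libraries, 5.83-fold lower (change −2.53, SE 0.05, adjusted p = 3.30e-08). The clamp loader RFC has 1 large and 4 small subunits. The large subunit Rfc1 fell 2.41-fold, and of the small ones Rfc2 fell 2.80-fold, Rfc3 3.08-fold and Rfc5 7.26-fold. Rfc4 had 5.02 ± 1.40 TPM in LPS and 21.1 ± 0.301 TPM in control libraries. Rfc5 had 5.99, 5.26 and 4.61 TPM in LPS libraries, against 37.9, 37.9 and 39.3 TPM in control libraries. Its ratio to Rfc1, a pair chosen after its values were seen, averaged 0.289 ± 0.0658 in LPS and 0.859 ± 0.0505 in control libraries. Lat2, at between 77.4 and 82.1 TPM in LPS and between 206 and 212 TPM in control libraries, lies opposite 15.1% of Rfc2 exon bases, so part of the Rfc2 reads could be shared. The same limit holds for Rfc4, with Eif4a2 opposite 12.7% of exon bases, and for Rfc5, with Wsb2 opposite 10.7%. Eif4a2 had between 103 and 117 TPM in LPS and between 141 and 153 TPM in control libraries. Wsb2 had between 76.9 and 94.9 TPM in LPS and between 87.6 and 93.5 TPM in control libraries. Transcripts of the single-strand binding protein RPA fell for all 3 subunits, with Rpa1 at 31.4 ± 1.90 TPM in LPS and 147 ± 17.8 TPM in control libraries. Rpa2 was 3.72-fold lower and Rpa3 2.80-fold lower. Of the 9 transcripts of the clamp, clamp loader and RPA, 3 fell by at least 2 on the log2 scale, Rfc5, Pcna and Rpa1. RPA and RFC also serve DNA repair, whose part in these changes was not tested. After median-of-ratios scaling the change of Rpa1 was −1.70.

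Transcripts of the enzymes that finish Okazaki fragments fell strongly. Lig1, the replicative DNA ligase, had 6.23, 7.63 and 7.21 TPM in LPS libraries, against 91.6, 93.2 and 89.7 TPM in control libraries. It was 13.0-fold lower (change −3.53, SE 0.08, adjusted p = 4.09e-08). Fen1, the flap endonuclease, had 13.6 ± 1.09 TPM in LPS and 87.1 ± 0.954 TPM in control libraries, 6.41-fold lower. An opposite-strand locus, Gm10143, covers 78.8% of Fen1 exon bases, and it did not exceed 1.31 TPM in any library. Tmem258 lies opposite a further 5.37% and had between 114 and 127 TPM in LPS and between 76.1 and 97.3 TPM in control libraries. Subunit transcripts of chromatin assembly factor 1, which sets new histones behind the fork, were lower by 8.99-fold for Chaf1a and 4.99-fold for Chaf1b. Chaf1a had 2.87 ± 0.625 TPM in LPS and 25.8 ± 2.74 TPM in control libraries, and 52.5% of its exon bases lie under Ubxn6 on the opposite strand. Ubxn6 was listed at between 26.3 and 26.8 TPM in LPS and between 35.1 and 41.1 TPM in control libraries.

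Nucleotide supply held both the largest fall among members and one of the smallest. Ribonucleotide reductase makes deoxynucleotides from ribonucleotides, and Rrm2 encodes its S-phase small subunit (ENSMUSG00000020649, GRCm38 chromosome 12, 24708241 to 24714146, plus strand). Rrm2 had 1.36, 1.49 and 1.76 TPM in LPS libraries, against 169, 168 and 162 TPM in control libraries. LPS libraries held 0.924% of the control mean, a 108-fold lower level, and the gene ranked 13 among all tested genes by fall (change −6.05, SE 0.08, adjusted p = 6.84e-09). An exact two-sided permutation test on Rrm2 TPM reached p = 0.1, and with 3 libraries a group it cannot go lower. The large subunit Rrm1 fell 15.2-fold, to 9.24 ± 0.385 TPM in LPS libraries, against 139.9 ± 10.0 TPM in control libraries. Rrm2 to Rrm1 gave 0.142, 0.169 and 0.189 in LPS libraries and 1.22, 1.11 and 1.24 in control libraries.

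Thymidylate synthase, thymidine kinase and dUTPase supply thymidine nucleotides and keep uracil out of DNA. Tyms had 3.27, 2.10 and 2.36 TPM in LPS libraries, against 79.5, 65.7 and 76.1 TPM in control libraries, 28.6-fold lower (change −4.39, SE 0.14, adjusted p = 1.68e-07). Tk1 had 11.9, 13.8 and 14.0 TPM in LPS libraries, against 204, 209 and 202 TPM in control libraries, 15.5-fold lower. Dut was 11.1-fold lower. Dck, the deoxycytidine kinase that salvages deoxynucleosides (ENSMUSG00000029366, GRCm38 chromosome 5, 88764996 to 88783281, plus strand), stood apart from the other 5. It had 59.7, 61.6 and 54.1 TPM in LPS libraries, against 72.9, 77.2 and 64.3 TPM in control libraries, only 1.22-fold lower. The groups did not overlap and the gene was called (change −0.28, SE 0.08, adjusted p = 0.0156), but after median-of-ratios scaling its change was 0.21 and uncalled (adjusted p = 0.0599). By level Dck ranked 16 among members in control and 2 in LPS libraries, behind Pcna. The ratio of Dck to Tk1, which encode the salvage kinases of the cytosol, was 5.01, 4.46 and 3.86 in LPS libraries and 0.357, 0.369 and 0.319 in control libraries.

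The promoters at these ends of the range, Rrm2 (chr12:24708004-24708303, plus strand) and Dck (chr5:88764763-88765062, plus strand), hold no match to the E2F-type letters in windows cut as above and are printed without capitals.
Rrm2: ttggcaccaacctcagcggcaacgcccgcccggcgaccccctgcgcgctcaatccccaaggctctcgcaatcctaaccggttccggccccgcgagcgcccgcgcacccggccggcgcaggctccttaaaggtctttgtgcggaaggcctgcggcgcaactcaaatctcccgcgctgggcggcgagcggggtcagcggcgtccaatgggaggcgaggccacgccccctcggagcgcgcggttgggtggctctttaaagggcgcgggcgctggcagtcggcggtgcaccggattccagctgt
Dck: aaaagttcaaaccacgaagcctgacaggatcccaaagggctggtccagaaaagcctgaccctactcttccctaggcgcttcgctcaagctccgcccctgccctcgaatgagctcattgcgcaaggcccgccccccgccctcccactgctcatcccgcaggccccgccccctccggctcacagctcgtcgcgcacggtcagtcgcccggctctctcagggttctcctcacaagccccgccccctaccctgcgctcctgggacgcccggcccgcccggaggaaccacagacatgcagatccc
Both windows are rich in G and C, at 71.3% for Rrm2 and 67.0% for Dck. CCAAT stood once in the Rrm2 window and TTTGAA once in the Dck window, counting both strands. The absence of a match says only that these letters are not in these windows.

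**Figure D3:**
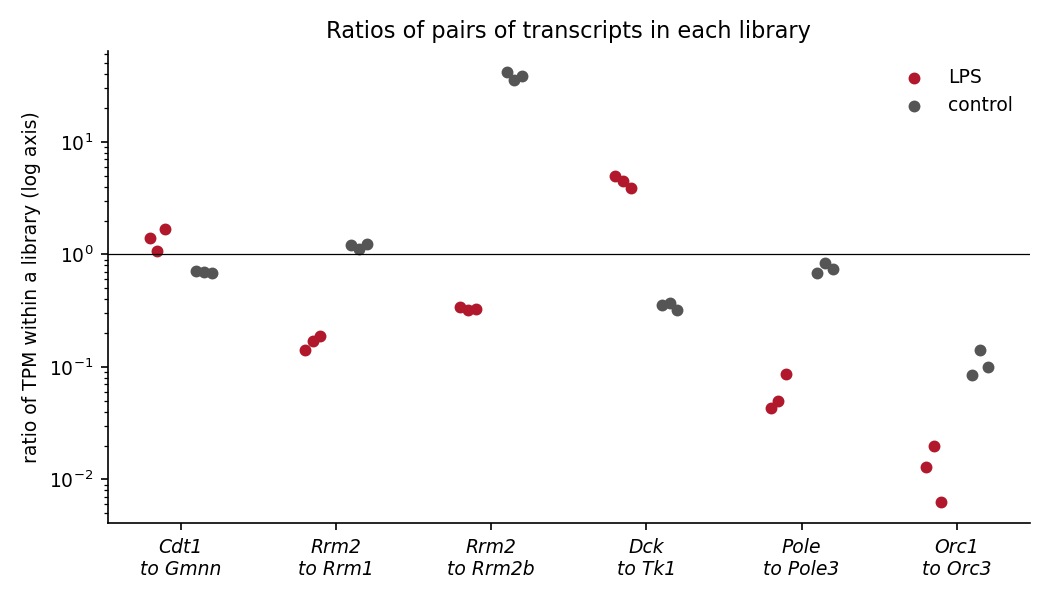
Ratio of TPM of 2 transcripts within each library (vertical log axis; LPS red, control grey, 3 libraries each). Of the 6 pairs plotted, LPS libraries lie above control libraries for Cdt1 to Gmnn and Dck to Tk1 and below them for Rrm2 to Rrm1, Rrm2 to Rrm2b, Pole to Pole3 and Orc1 to Orc3, with Rrm2 to Rrm2b at 0.323 to 0.344 in LPS and 35.3 to 41.6 in control libraries. The pairs were chosen after their values were seen.

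Genes of the same pathway outside the set were read from 2 lists. Of 34 other replication factors, 30 were called lower, 0 higher and 4 were not called, and the median change was −1.64. The 4 genes of either list with the largest called falls on the log2(TPM + 1) scale were all here, though by fold of mean TPM the low transcripts Dscc1 (54.6-fold) and Ticrr (39.3-fold), named after their values were seen, fell by more than the third and the fourth of them. Top2a, the topoisomerase that untangles daughter strands, had 2.32, 2.53 and 3.49 TPM in LPS libraries, against 283, 319 and 278 TPM in control libraries. Clspn, the fork checkpoint adaptor claspin, fell 62.1-fold, to 0.603 ± 0.318 TPM in LPS libraries, against 37.5 ± 4.82 TPM in control libraries. The histone chaperone gene Asf1b fell 25.6-fold and Uhrf1, which guides maintenance DNA methylation, 19.7-fold. The 4 factors without a call were Mcmbp, Pole4, Top1 and Asf1a, named after their values were seen. For the paralogs Asf1a and Asf1b the means were 7.30 and 5.81 TPM in LPS libraries, against 9.40 and 149 TPM in control libraries.

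Of 37 other nucleotide enzymes, 21 were called lower, 5 higher and 11 were not called. Their median change of −0.34 lay near the −0.44 of all tested genes, against −2.19 for the members. After median-of-ratios scaling 13 were lower and 16 higher, so the split of this list depends on the scaling, which can only raise a change here. Those called higher included Cmpk2, Samhd1, Mthfd2 and, beyond the naming rule and chosen after its values were seen, Adsl. Cmpk2, a mitochondrial nucleotide kinase known as an interferon-induced gene, had 42.4, 46.8 and 46.8 TPM in LPS libraries, against 6.63, 8.03 and 8.58 TPM in control libraries, 5.85-fold higher. Samhd1, which breaks down deoxynucleoside triphosphates, rose 1.73-fold, with 345, 349.8 and 389 TPM in LPS libraries and 202, 215 and 208 TPM in control libraries (change 0.79, SE 0.06, adjusted p = 1.33e-05). Mthfd2, a mitochondrial folate enzyme, was 1.45-fold higher.

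Counterparts that serve resting cells or mitochondria differed from the S-phase enzymes. Rrm2b encodes the small reductase subunit known to serve cells outside S phase, and it had 3.95, 4.62 and 5.35 TPM in LPS libraries and 4.06, 4.76 and 4.22 TPM in control libraries. These groups overlapped and no change was called (change 0.07, SE 0.12, adjusted p = 0.610), though after median-of-ratios scaling it was called higher by 0.48 (adjusted p = 0.00773). The ratio of Rrm2 to Rrm2b was 0.344, 0.323 and 0.329 in LPS libraries and 41.6, 35.3 and 38.4 in control libraries, so that Rrm2b was the more abundant small subunit transcript in every LPS library and the less abundant in every control library. The mitochondrial kinases Tk2 and Dguok were called lower, by 1.76-fold and 1.53-fold. The call of Dguok was lost after scaling (adjusted p = 0.498).

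**Figure D4:**
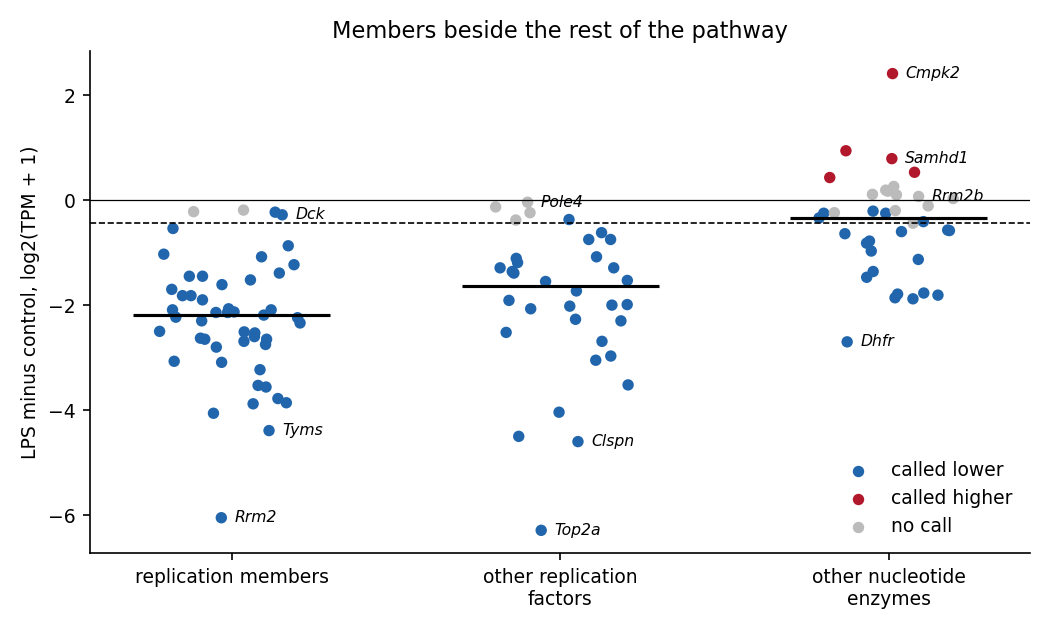
Change of each gene (vertical axis, LPS minus control on the log2(TPM + 1) scale) for the 51 members, 34 other replication factors and 37 other nucleotide enzymes, with bars at the list medians of −2.19, −1.64 and −0.34. Blue points were called lower, red higher and grey not called. The dashed line is the median of all tested genes at −0.44, and the red points are all nucleotide enzymes.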

How the data were processed

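RNA sequencing of 3 LPS and 3 control libraries was read from the series' table of TPM values, deposited by the authors for 55736 genes; library sums differ from the nominal TPM total by at most 0.75. Per the submitters' processing notes, Bowtie 0.12.2 and the builds mm8 and mm9 were used, with no role given. Quantifier, annotation and strandedness were not given in the sources used here. TPM keeps no depth, so depth is unknown. The 12440 genes that reached 1 TPM in 3 or more libraries were tested with limma 3.58.1 in R 4.3.3 (lmFit, eBayes with a trend) on log2(TPM + 1), with two-sided p-values adjusted by Benjamini-Hochberg over the 12440 and a limit of 0.05. The code was tested on simulated data. Members and lists were chosen with earlier results of these data known, so no list was tested. Pairs of transcripts given as ratios were all chosen after their values were seen. All members are named, with, from the pathway lists, the 4 largest called falls and rises and 7 counterparts fixed by name; 1 gene that the rule names is not reported here. Gene positions came by identifier from GENCODE M21 and promoters by symbol from RefSeq (GRCm38.p6). No label ties the libraries to separate cultures or animals; p-values therefore reflect library-to-library spread, which may be technical. Alternatives were a pseudocount of 0.1, no filter, a filter at 5 TPM, median-of-ratios scaling, quantile normalization, a replicate block and leaving out each library.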

Additional observations from a re-analysis of the deposited data

How the results depend on the processing

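Of the 49 members called lower, 46 kept that call under all 12 alternatives that tested them; a filter at 5 TPM left out Orc1. The pseudocount, both filters, the replicate block and leaving out any 1 library changed no member's call or direction. The 2 scalings did. Median-of-ratios scaling divided LPS libraries by 0.835 to 0.864 and control libraries by 1.18 to 1.22, moving the median change of all genes by 0.45. With it 1 member, Orc3, was called higher (0.25), Orc2 (0.25), Orc4 (0.28) and Dck (0.21) turned up uncalled, and Pold4 (0.12) and Pole4 (0.45) turned too. Quantile normalization also called 1 member higher, Orc3 (0.19), and turned Orc2 (0.32), Orc4 (0.33), Orc5 (0.01) and Pole4 (0.37). All genes called lower numbered 4181 with median of ratios and 4257 with quantiles and those called higher 4167 and 4029, in that order as for the counts that follow. Other replication factors called higher numbered 2 and 1, other nucleotide enzymes called lower 13 and 12, and those called higher 16 and 15. The members' median change was −1.73 under both, and −2.54 with a pseudocount of 0.1. Leaving out 1 library gave Rrm2b changes from −0.02 to 0.16, never called, and Pole4 changes from −0.23 to 0.06, called only without control replicate 2 (adjusted p = 0.0432).

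No label says whether replicate numbers pair the libraries. Deviations of same-numbered libraries from their group means correlated at 0.074, −0.151 and 0.076, and not every library correlated best with its own number. These deviations come from 3 libraries a group, so they cannot show whether the libraries were paired. With the replicate block 49 members were lower and 0 higher, and 7304 of all tested genes were lower. With no depth given, no counting error can be stated for the low levels, such as those of Orc1, Pole and Rrm2 in LPS libraries.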
